A study of Mus musculus with 9 samples.

Results

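The 44 genes described here encode protein-folding factors of the endoplasmic reticulum (ER), the cytosol and the mitochondria, together with the sensors and transcription factors that control some of them. They were taken from the deposited tables by gene symbol, and all 44 were found among the 20618 genes listed. By role they comprise 22 genes of the ER, 10 of the cytosolic HSP70 and HSP90 system, 4 of the mitochondria and 8 of the TRiC chaperonin. The ER genes divide into 5 folding chaperones, 4 protein disulfide isomerases, 6 cochaperones, 4 genes of ER-associated degradation and 3 regulators of the unfolded protein response.

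The libraries were made from total RNA of wild-type mouse CD8+ T cells, the killer lymphocytes, kept as primary cells for 24 h in 1 of 3 media and then sorted for live cells, which were about 80%. The media held 2 mM glucose, 2 mM inosine, or 2 mM inosine with hypoxanthine, and all held 10% dialyzed serum. Inosine is a purine nucleoside that cells can split into a sugar phosphate and the base hypoxanthine. The label prints the hypoxanthine dose as 100 M, so its true unit is not known, and whether the inosine media also held glucose is not given in the sources used here. There were 3 libraries per medium and 9 in all, under a single batch label. Whether the 3 libraries of a medium are separate cultures or mice is not labelled, and p-values therefore describe only the spread among these libraries, which may be technical.

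Chaperones bind unfolded or half-made proteins and help them reach their folded form, often with energy from ATP. The ER set works on secreted and membrane proteins, such as the receptors and cytotoxic molecules of T cells. When unfolded protein builds up in the ER, sensors that include IRE1 alpha (Ern1) and ATF6 raise transcription of ER chaperone genes, in part through ER stress response elements in their promoters. In the cytosol and nucleus, HSF1 has a like role through heat shock elements, and T cells that are activated to grow make more of many chaperones.

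The main promoter elements were searched in 300-base windows, 250 bases before and 50 after each RefSeq transcription start (build GRCm38.p6), which were held for 35 of the 44 genes. The ER stress response element was searched on both strands as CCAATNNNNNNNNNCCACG, which contains the shorter CCAAT box. It was found in 8 of the 35 genes, all of them among the 19 ER genes with a window (42.1%), and in 37 of 27025 genes with a window in all (0.137%). These 8 were the folding chaperone genes Hspa5, Hsp90b1, Calr and Canx, the isomerase gene Pdia6, the cochaperone genes Creld2 and Dnajc3, and Syvn1 of ER-associated degradation. The heat shock element was searched as GAANNTTCNNGAA or TTCNNGAANNTTC, and was found in Hspd1, Hspe1 and Hsph1 and in 0.662% of all genes with a window. The CCAAT box, within the longer element or outside it, was in 27 of the 35 genes, against 41.1% of all genes with a window. A match is a match of letters and does not show that a factor binds there.

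The 250 bases before the start are printed 5′ to 3′ on the gene's own strand for 6 genes, to show the elements beside which the values below can be read. Hspa5 (chr2:34771840-34772089, + strand), Hsp90b1 (chr10:86705445-86705694, - strand), Pdia6 (chr12:17266339-17266588, + strand) and Creld2 (chr15:88819396-88819645, + strand) fell with hypoxanthine. Syvn1 (chr19:6046326-6046575, + strand) has the same element and did not pass the test. Hspe1 (chr1:55087898-55088147, + strand) is a mitochondrial member with heat shock elements, on a stretch that it shares with the oppositely directed Hspd1. Capitals mark the ER stress response element in the first 5, in Creld2 and the second site of Hsp90b1 as its reverse complement. In Hspe1 they mark 2 overlapping matches to the heat shock element.
Hspa5: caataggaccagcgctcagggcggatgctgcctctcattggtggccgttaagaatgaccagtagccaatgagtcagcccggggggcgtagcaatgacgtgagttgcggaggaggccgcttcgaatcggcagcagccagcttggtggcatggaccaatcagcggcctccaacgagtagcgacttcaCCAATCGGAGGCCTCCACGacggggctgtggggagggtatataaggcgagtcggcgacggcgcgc
Hsp90b1: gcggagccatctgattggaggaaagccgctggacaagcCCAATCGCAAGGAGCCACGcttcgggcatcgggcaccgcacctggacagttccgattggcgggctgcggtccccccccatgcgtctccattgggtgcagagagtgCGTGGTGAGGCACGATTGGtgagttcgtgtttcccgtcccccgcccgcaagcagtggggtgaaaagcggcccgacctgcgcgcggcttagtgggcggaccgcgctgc
Pdia6: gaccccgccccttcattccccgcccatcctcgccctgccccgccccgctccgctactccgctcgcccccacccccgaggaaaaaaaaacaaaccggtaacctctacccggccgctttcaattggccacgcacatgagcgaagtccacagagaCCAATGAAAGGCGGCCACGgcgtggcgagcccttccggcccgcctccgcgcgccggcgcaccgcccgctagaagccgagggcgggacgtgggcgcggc
Creld2: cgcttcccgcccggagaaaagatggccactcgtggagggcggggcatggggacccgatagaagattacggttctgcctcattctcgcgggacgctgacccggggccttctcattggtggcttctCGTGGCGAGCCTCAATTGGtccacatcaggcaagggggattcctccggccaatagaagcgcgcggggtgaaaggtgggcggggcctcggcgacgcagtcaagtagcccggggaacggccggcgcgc
Syvn1: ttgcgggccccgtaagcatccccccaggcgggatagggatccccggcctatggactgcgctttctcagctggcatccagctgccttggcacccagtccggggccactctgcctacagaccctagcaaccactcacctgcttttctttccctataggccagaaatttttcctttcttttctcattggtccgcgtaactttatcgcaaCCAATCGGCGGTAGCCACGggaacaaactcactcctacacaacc
Hspe1: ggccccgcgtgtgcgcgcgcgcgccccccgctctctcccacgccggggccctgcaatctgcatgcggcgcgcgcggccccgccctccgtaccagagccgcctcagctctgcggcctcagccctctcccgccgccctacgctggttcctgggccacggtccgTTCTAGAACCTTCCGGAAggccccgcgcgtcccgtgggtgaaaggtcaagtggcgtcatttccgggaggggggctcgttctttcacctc
Counted from the start site, the element ended at base -47 in Hspa5, at -194 and -89 in Hsp90b1, at -80 in Pdia6, at -108 in Creld2 and at -26 in Syvn1.

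The tables give each gene's level as FPKM, fragments scaled by transcript length and by library size, which allows levels of different genes to be compared. Whole reads recovered from the deposited values came to between 30784440 and 49985036 per library, so counting error is small for all but the lowest members. The cells carried T cell transcripts in every library, with Cd8a between 69.7 and 179 FPKM and Cd3e between 78.7 and 176 FPKM. All 6 CD8 T cell markers found (Cd3e, Cd3d, Cd3g, Cd8a, Cd8b1 and Ptprc) were themselves called higher with hypoxanthine than in inosine. Summed, they came to 668 to 849 FPKM in inosine libraries, 695 to 757 FPKM in glucose libraries and 1210 to 1300 FPKM in hypoxanthine libraries. Of 12 markers of other cells, 11 stayed at or under 0.29 FPKM in every library, and Epcam lay between 1.03 and 2.1 FPKM and was called higher with hypoxanthine. The summed level of these 12 was at most 1.79 FPKM in glucose and inosine and 2.36 to 2.37 FPKM with hypoxanthine, and the part of either shift in the chaperone results was not tested. Inosine library 2 and hypoxanthine library 2 stood apart by their share of FPKM from the 13 genes of mitochondrial DNA, 6.5% and 5.84%, against 4.03% to 4.82% in the other 7. In bulk RNA, fewer cells of a type and less RNA per cell cannot be told apart.

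Adding hypoxanthine to inosine went with lower transcript levels of about 1 in every 2 of these genes, and with higher levels of none. A gene was called when limma's adjusted p, over all 20618 genes, was under 0.05 for the difference in log2(FPKM + 1). With this rule 23 of the 44 fell, none rose and 21 were not called. Of all genes, 9.59% were called lower and 11.7% higher, and of the 9947 genes that average 1 FPKM or more, as all 44 do, 16.0% were called lower. The median difference was -0.33 for the 44 genes, 0.0 for all genes and 0.02 for those averaging 1 FPKM or more. The genes differed among themselves, from a fall of 0.78 on this log2 scale in Sdf2l1 to a difference of 0.25 in Edem1, which was not called. For 27 of the 44, all 3 hypoxanthine libraries lay below all 3 inosine libraries. This order was found for 15.6% of all genes and for 2347 of the 9947 averaging 1 FPKM or more. For Xbp1 and Dnajb1 all 3 lay above, an order found for 18.7% of all genes and for 2558 of those 9947.

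Against glucose, 25 of the 44 were lower with inosine and hypoxanthine, none was higher and 19 were not called, with a median of -0.33. Of all genes, 9.55% were called lower and 10.8% higher in that comparison. For 30 of the 44 the hypoxanthine libraries lay below all glucose libraries, against 17.8% of all genes. For Dnajb9 and Hspa1a they lay above, against 19.8% of all genes. Of the 9947 genes averaging 1 FPKM or more, 2793 lay below and 2681 above in this way. The 23 genes lower than in inosine were all among the 25, which also held Hyou1 and P4hb. Both comparisons use the same 3 hypoxanthine libraries, so the second is not independent of the first.

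**Figure D1:**
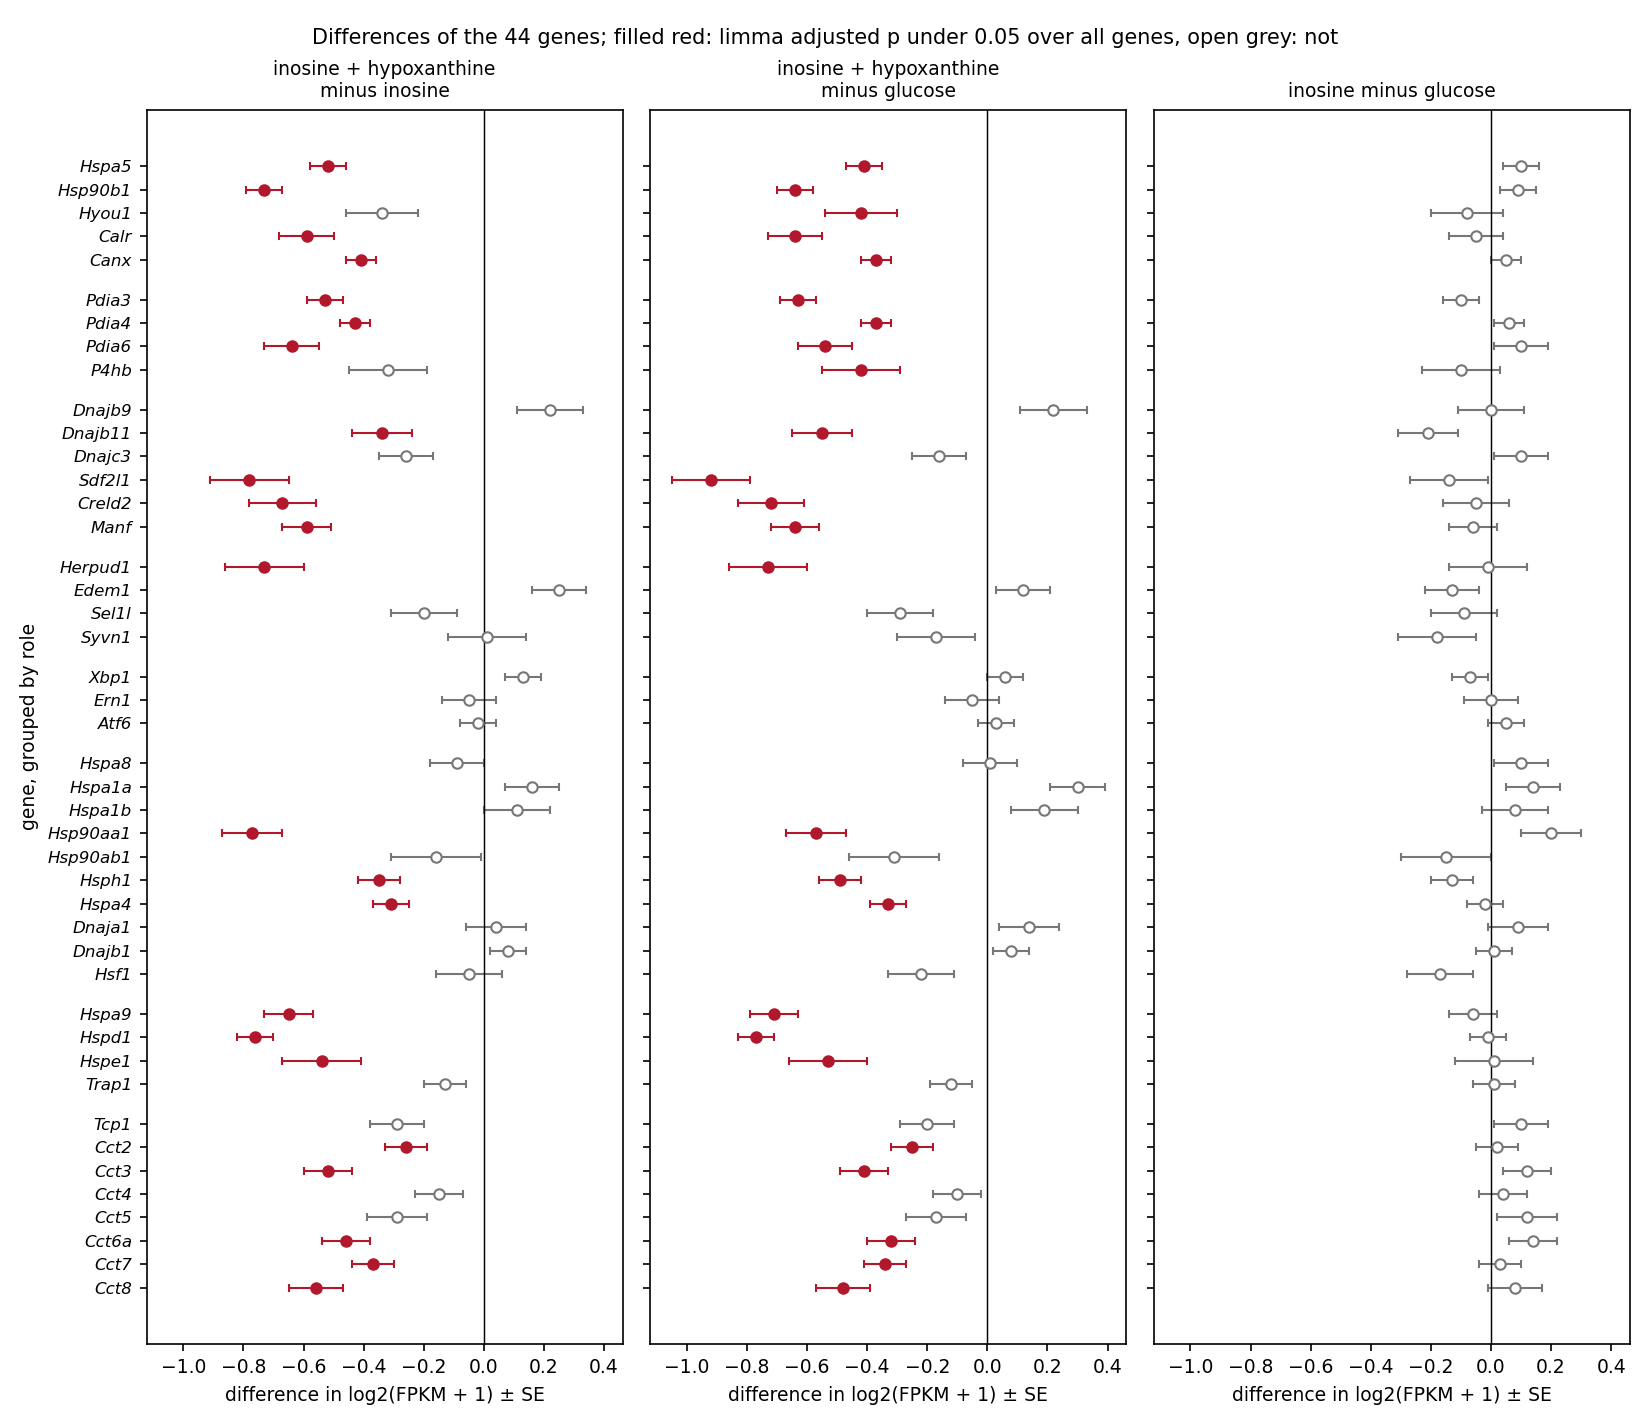
Differences in log2(FPKM + 1) of the 44 genes with their standard errors, for hypoxanthine against inosine (left), hypoxanthine against glucose (middle) and inosine against glucose (right), 3 libraries per medium. Filled red points passed limma's adjusted p of 0.05 over all genes; there are 23 in the left panel, 25 in the middle panel and none in the right one.

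Among the ER folding chaperones, 4 of 5 fell against inosine and all 5 against glucose, with medians of -0.52 and -0.42. Values below are FPKM in libraries 1, 2 and 3 of each medium, or means ± SD of the 3. Hspa5 (BiP, the ER's HSP70 and a binding partner of the stress sensors) was at 342, 339 and 359 in glucose, 356, 370 and 393 in inosine, and 258, 266 and 257 with hypoxanthine. The 3 hypoxanthine libraries were alike and all below the other 6, a difference from inosine of -0.52 ± 0.06 (log2 ± SE, adjusted p = 0.000819). Hsp90b1 (GRP94, the ER's HSP90, which folds integrins and Toll-like receptors) was at 404, 384 and 417 in glucose, 415, 431 and 440 in inosine, and 248, 265 and 259 with hypoxanthine. Its groups did not overlap either, and its fall from inosine was larger in size than that of Hspa5, at -0.73 ± 0.06 (adjusted p = 0.000148).

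Within each library, the ratio of Hsp90b1 to Hspa5 FPKM was 1.18, 1.13 and 1.16 in glucose, 1.16, 1.16 and 1.12 in inosine, and 0.963, 0.998 and 1.01 with hypoxanthine. Hypoxanthine libraries thus had the lowest 3 ratios. The 2-sided exact permutation p was 0.1 against either medium, the smallest that 3 against 3 libraries can give.

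The lectin chaperones, which hold glycoproteins until they are folded, showed the same order. Calr (calreticulin, soluble in the ER lumen) was at 579, 539 and 529 in glucose, 549, 485 and 560 in inosine, and 374, 322 and 362 with hypoxanthine. It was the highest of the 22 ER genes by mean in all 3 media, and it fell by 33.7% in mean FPKM against inosine (adjusted p = 0.00191). Canx (calnexin, its membrane-bound relative) was at 119, 122 and 126 in glucose, 127, 125 and 127 in inosine, and 93.9, 93.3 and 96.5 with hypoxanthine. Its libraries were tight within each medium, and its fall of 25% was called at an adjusted p of 0.00117. Hyou1 (GRP170, which exchanges the nucleotide of BiP) had means of 50.6 ± 1.92 FPKM in glucose, 48.2 ± 7.42 in inosine and 37.6 ± 4.42 with hypoxanthine (SD, n = 3). It was called against glucose (adjusted p = 0.0403) and not against inosine (adjusted p = 0.0821). The call against glucose was lost when any of 7 libraries was left out (glucose 1, 2 and 3, inosine 3, hypoxanthine 1, 2 and 3), with adjusted p between 0.0589 and 0.124. Without inosine library 2 the difference from inosine was called too (adjusted p = 0.0163).

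**Figure D2:**
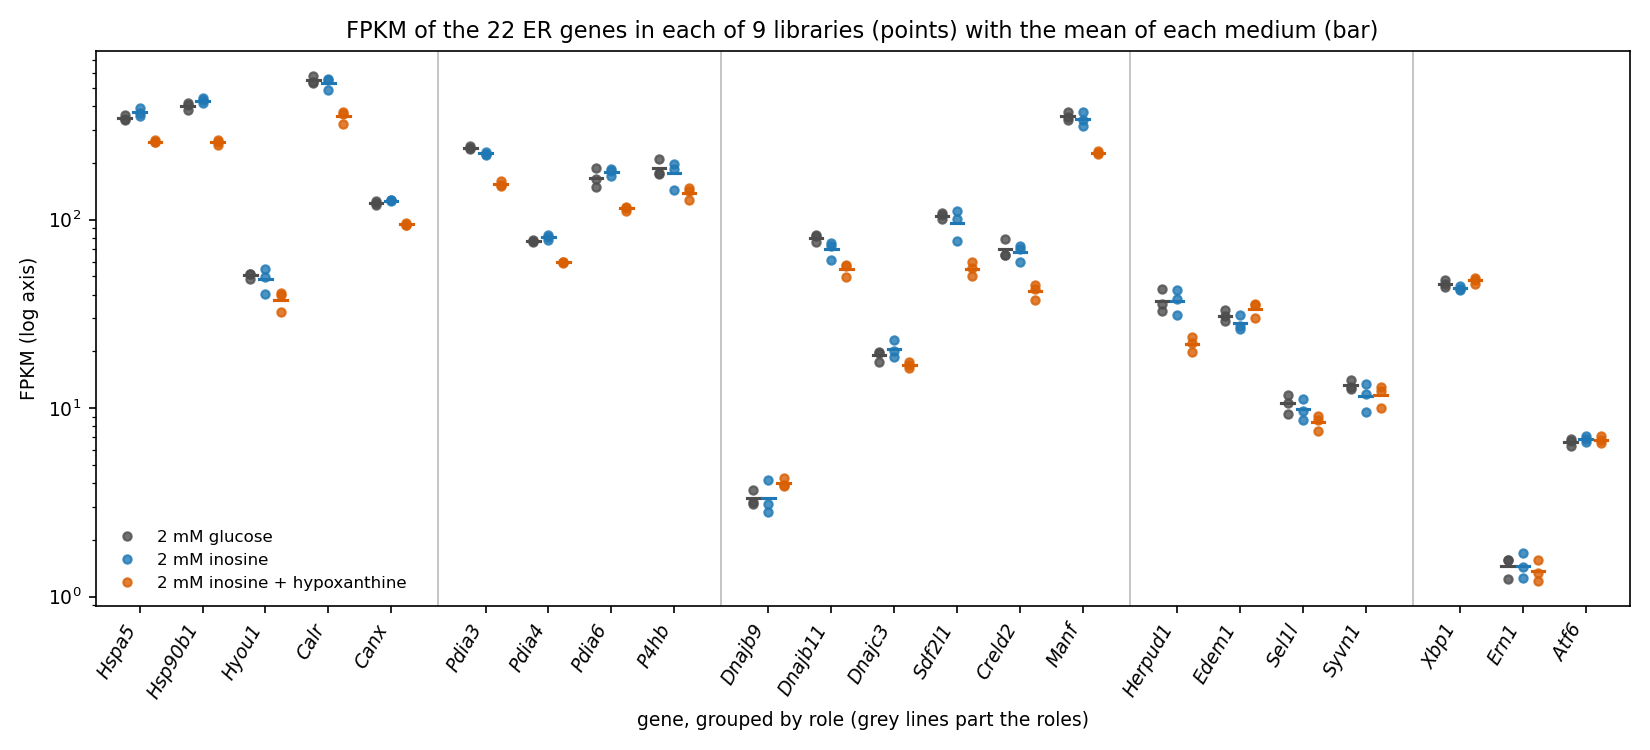
FPKM on a log axis of the 22 ER genes in each library, with points for single libraries and a bar for the mean of 3; grey is glucose, blue inosine and orange inosine with hypoxanthine. The orange points of Hspa5, Hsp90b1, Calr, Canx, Pdia3, Pdia4 and Pdia6 lie below all others, while those of Xbp1, Ern1 and Atf6 lie close to them.

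Protein disulfide isomerases form and rearrange the disulfide bonds of proteins in the ER, and 3 of 4 fell against inosine and all 4 against glucose, with a median of -0.48 in both comparisons. Pdia3 (ERp57, which works with calnexin and calreticulin and in loading MHC class I) was at 236, 246 and 239 in glucose, 230, 221 and 223 in inosine, and 161, 151 and 153 with hypoxanthine. Hypoxanthine libraries were well below the rest, at -0.53 ± 0.06 against inosine (adjusted p = 0.000459). Pdia4 (ERp72) was at 78.2, 76.6 and 76.8 in glucose, 78.3, 80.7 and 82.9 in inosine, and 59.7, 60 and 58.7 with hypoxanthine. Its spread within a medium was small, and the difference from inosine was -0.43 ± 0.05 (adjusted p = 0.000845). Pdia6 (which also acts on the sensor IRE1 alpha) was at 187, 150 and 165 in glucose, 182, 171 and 186 in inosine, and 111, 117 and 116 with hypoxanthine. It had the largest difference of the 4 from inosine, -0.64 ± 0.09 (adjusted p = 0.00121).

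P4hb (PDI itself, also a subunit of collagen prolyl hydroxylase) was at 209, 174 and 178 in glucose, 198, 144 and 185 in inosine, and 148, 128 and 142 with hypoxanthine. Inosine library 2 lay among the hypoxanthine values, and the difference from inosine was not called (adjusted p = 0.114), while that from glucose was (-0.42 ± 0.13, adjusted p = 0.0483). Without inosine library 2 the first was called (adjusted p = 0.017). The call against glucose was lost without any of glucose 1, 2 and 3, inosine 3 and hypoxanthine 1, 2 and 3, with adjusted p between 0.0695 and 0.15.

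Of the 6 ER cochaperones, 4 fell in both comparisons, with medians of -0.46 against inosine and -0.60 against glucose. Sdf2l1 (a partner of ERdj3 that keeps substrates from aggregating) was at 108, 106 and 101 in glucose, 111, 77.2 and 101 in inosine, and 59.5, 50.4 and 55.2 with hypoxanthine. Even the low inosine library 2 stood above all hypoxanthine libraries, and the difference, -0.78 ± 0.13 (adjusted p = 0.00285), was the largest fall among the 44 genes. Creld2 (a disulfide isomerase-like protein of the ER) was at 78.9, 64.8 and 65.3 in glucose, 72.3, 59.3 and 69.6 in inosine, and 43, 37.6 and 44.8 with hypoxanthine. Its groups with and without hypoxanthine did not overlap, and it fell by 37.7% in mean FPKM against inosine (adjusted p = 0.00338). Manf (a secreted factor kept in the ER that binds BiP) was at 375, 339 and 351 in glucose, 338, 374 and 315 in inosine, and 226, 231 and 224 with hypoxanthine. It had the highest level of the 6, and its difference from inosine was -0.59 ± 0.08 (adjusted p = 0.00118).

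The other 3 cochaperones carry a J domain, which stimulates HSP70 proteins. Dnajb11 (ERdj3, a BiP partner) had means of 80.4 ± 3.64, 69.6 ± 7.56 and 54.6 ± 4.42 FPKM in glucose, inosine and hypoxanthine (SD, n = 3). It was called lower than in inosine (-0.34 ± 0.10, adjusted p = 0.0335) and than in glucose (-0.55 ± 0.10, adjusted p = 0.00428). The call against inosine was lost without any of glucose 2 and 3, inosine 1 and 3 and hypoxanthine 1, 2 and 3, with adjusted p between 0.0504 and 0.108. Dnajc3 (p58IPK, a BiP cochaperone first known as an inhibitor of the kinase PKR) had means of 20.6 ± 2.18 FPKM in inosine and 17 ± 0.608 with hypoxanthine and was not called (adjusted p = 0.0634), though it was without inosine library 1 (adjusted p = 0.0321). Dnajb9 (ERdj4, which helps BiP hold IRE1 alpha inactive) was the lowest of the 6 at 3.35 ± 0.701 FPKM in inosine and 4.02 ± 0.205 with hypoxanthine. Its difference of 0.22 ± 0.11 was not called (adjusted p = 0.223), and without inosine library 1, the highest of the 3, it was called higher (adjusted p = 0.0248).

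ER-associated degradation draws misfolded proteins out of the ER to the proteasome, and only Herpud1 of its 4 members passed the test, in both comparisons. Herpud1 (a membrane protein that assembles the degradation complex) was at 42.9, 32.9 and 35.9 in glucose, 42.3, 31.2 and 38 in inosine, and 23.8, 19.8 and 22.1 with hypoxanthine. All hypoxanthine libraries were below the other 6, with a difference from inosine of -0.73 ± 0.13 (adjusted p = 0.00535). Edem1 (a lectin that marks glycoproteins for degradation) was at 28.9, 33.1 and 30.8 in glucose, 31.1, 26.2 and 27.4 in inosine, and 35.9, 30.1 and 35.1 with hypoxanthine. Its groups overlapped, and the difference from inosine, 0.25 ± 0.09, missed the threshold (adjusted p = 0.104). Sel1l (the scaffold of the SYVN1 ubiquitin ligase) was at 9.28, 11.8 and 10.6 in glucose, 11.2, 8.67 and 9.62 in inosine, and 9.07, 7.55 and 8.69 with hypoxanthine. It overlapped with inosine and was not called in either comparison (adjusted p = 0.288 against inosine and 0.114 against glucose). Syvn1, the ligase, had a difference from inosine of 0.01 and was not called. Its 95% interval ran from -0.28 to 0.31, which leaves room for changes within that range.

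None of the 3 regulators of the unfolded protein response among the 44 genes passed the test in any comparison. Eif2ak3, the gene of the sensor PERK, is not among the 44. It was called lower against inosine, going from 18.6 ± 3.37 to 12.8 ± 0.654 FPKM (adjusted p = 0.0164). Xbp1 (the transcription factor whose mRNA IRE1 alpha splices) was at 47.6, 43.7 and 45.4 in glucose, 44.3, 43.1 and 42.6 in inosine, and 49.2, 45.7 and 47.9 with hypoxanthine. Hypoxanthine libraries were all above the inosine ones, but the difference of 0.13 ± 0.06 was not called (adjusted p = 0.172). Gene-level FPKM do not tell spliced from unspliced Xbp1. Ern1 (IRE1 alpha) was at 1.24, 1.57 and 1.56 in glucose, 1.71, 1.44 and 1.25 in inosine, and 1.33, 1.21 and 1.57 with hypoxanthine, with full overlap. Atf6 (a sensor that is cut to release a transcription factor) was at 6.31, 6.73 and 6.88 in glucose, 7.14, 6.65 and 6.87 in inosine, and 6.75, 6.52 and 7.09 with hypoxanthine. The 95% intervals of the difference from inosine ran from -0.01 to 0.27 for Xbp1, from -0.27 to 0.16 for Ern1 and from -0.16 to 0.12 for Atf6. Whether these differences differ from those of the chaperone genes was not tested.

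In the cytosolic HSP70 and HSP90 system, 3 of 10 genes fell in both comparisons, with medians of -0.07 against inosine and -0.11 against glucose. Hsp90aa1 (the HSP90 form that stress induces) was at 395, 359 and 419 in glucose, 412, 468 and 468 in inosine, and 240, 298 and 252 with hypoxanthine. All hypoxanthine libraries were below the rest, and it fell by 41.4% in mean FPKM against inosine (log2 difference -0.77 ± 0.10, adjusted p = 0.00117). Hsp90ab1 (the form made at all times) was at 1625, 1457 and 1433 in glucose, 1631, 1089 and 1402 in inosine, and 1324, 1088 and 1248 with hypoxanthine. It had the highest mean level of all 44 genes in each medium, its inosine libraries spread widely, and its difference of -0.16 ± 0.15 was not called (adjusted p = 0.515). For the ratio of Hsp90aa1 to Hsp90ab1 FPKM, glucose libraries averaged 0.261 ± 0.027, inosine libraries 0.339 ± 0.089 and hypoxanthine libraries 0.219 ± 0.048 (SD, n = 3). These ratios overlapped between media, with an exact permutation p of 0.2 between hypoxanthine and inosine.

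Hspa8 (HSC70, the HSP70 that cells make at all times) was at 1168, 1142 and 1150 in glucose, 1091, 1343 and 1290 in inosine, and 1111, 1247 and 1123 with hypoxanthine. The media overlapped fully, with a difference from inosine of -0.09 ± 0.09 (adjusted p = 0.537). Hsph1 and Hspa4, the genes of cytosolic HSP110 proteins among the 44, did fall. These proteins exchange the nucleotide of HSP70. Hsph1 (HSP105) was at 52.7, 53.8 and 51.9 in glucose, 50.8, 44 and 49.7 in inosine, and 38.2, 35.3 and 38.8 with hypoxanthine, all below the other 6 libraries. Hspa4 (APG-2) was at 73.8, 75.6 and 73.7 in glucose, 74.9, 70.8 and 75.1 in inosine, and 60.5, 56.6 and 60.3 with hypoxanthine. Their differences from inosine were -0.35 ± 0.07 (adjusted p = 0.0089) for Hsph1 and -0.31 ± 0.06 (adjusted p = 0.00574) for Hspa4. Hspa4l, a gene of the same family that is not among the 44, did not fall. It was at 3.55 ± 0.745 FPKM in inosine and 5.47 ± 1.32 with hypoxanthine, and was not called (0.50 ± 0.19, adjusted p = 0.108).

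The stress-induced HSP70 genes Hspa1a and Hspa1b lie 9951 bases apart on chromosome 17, and their longest transcripts are 84.3% identical with a shared run of 638 bases. Reads may thus be split or lost between the copies, and each single value is uncertain. Hspa1a was at 1.31, 1.76 and 1.39 in glucose, 1.81, 1.45 and 1.92 in inosine, and 2.17, 1.91 and 2.04 with hypoxanthine. Hspa1b was at 2.07, 2.31 and 1.78 in glucose, 2.23, 1.83 and 2.65 in inosine, and 2.7, 2.26 and 2.47 with hypoxanthine. Both were far below Hspa8 in all libraries, and neither was called against inosine (adjusted p = 0.285 for Hspa1a and 0.543 for Hspa1b). Against glucose, Hspa1a was just short of the threshold (0.30 ± 0.09, adjusted p = 0.0553), and was called higher without glucose library 2 (adjusted p = 0.0301) or without inosine library 2 (adjusted p = 0.0324). In the authors' deposited table Hspa1a was higher than in glucose at an adjusted p of 0.039. Summed over both genes, glucose libraries averaged 3.54 ± 0.469 FPKM, inosine libraries 3.97 ± 0.645 and hypoxanthine libraries 4.52 ± 0.35 (SD, n = 3).

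Hsf1 (the heat shock transcription factor) was at 19, 21.2 and 18.1 in glucose, 18.5, 15.1 and 18 in inosine, and 17.7, 14.5 and 17.4 with hypoxanthine. It overlapped with inosine (adjusted p = 0.789), and was not called against glucose (-0.22 ± 0.11, adjusted p = 0.183). The J-domain partners of cytosolic HSP70, Dnaja1 and Dnajb1 (HSP40), had means of 79.8 ± 9.63 and 18.9 ± 0.484 FPKM in inosine and of 82 ± 7.45 and 20 ± 0.172 with hypoxanthine, and neither was called (adjusted p = 0.828 and 0.45). All 3 hypoxanthine libraries of Dnajb1 were above the inosine ones by a difference of 0.08 ± 0.06.

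**Figure D3:**
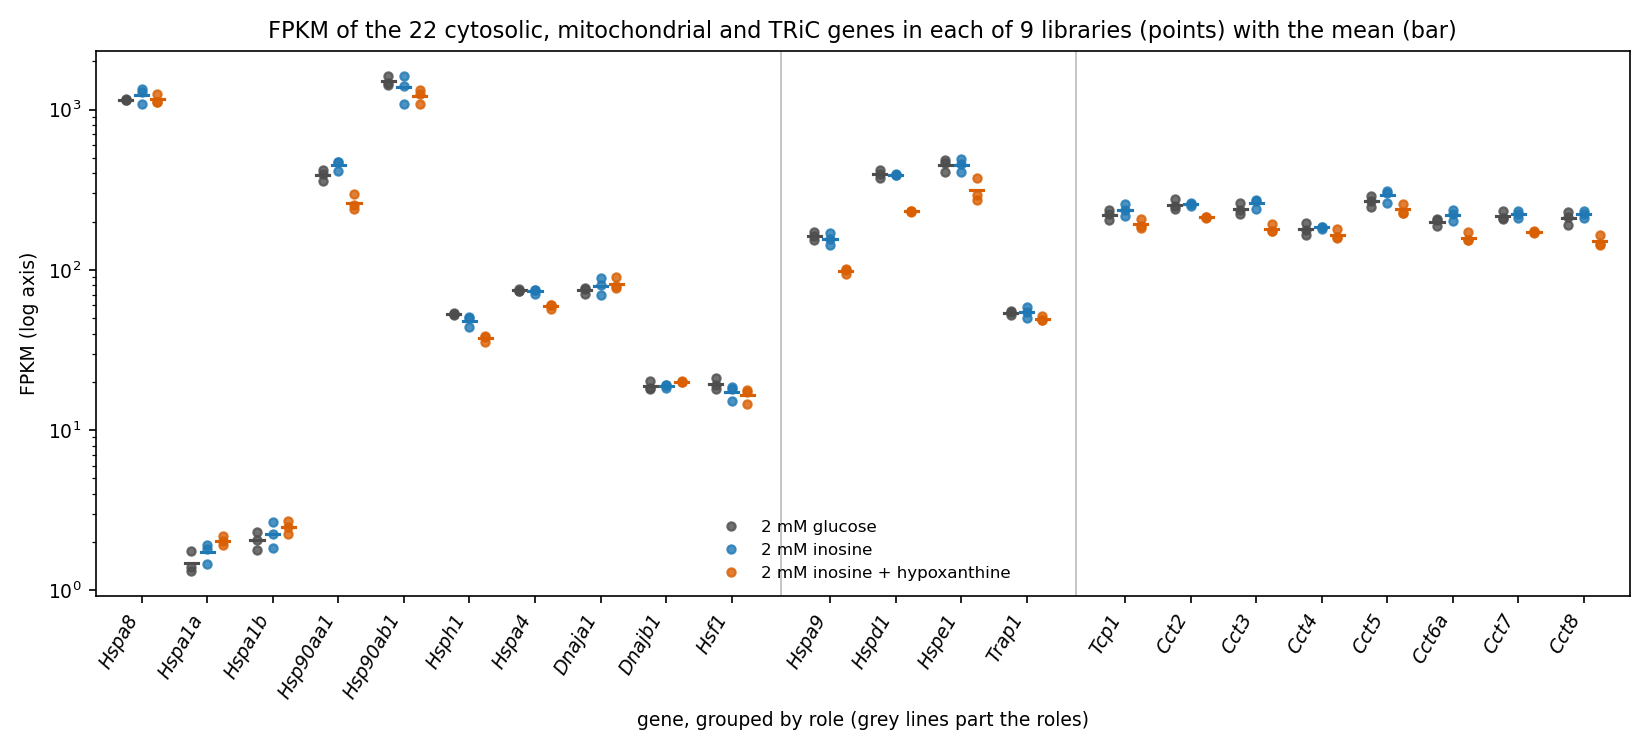
FPKM on a log axis of the 22 cytosolic, mitochondrial and TRiC genes in each library, with points for single libraries and a bar for the mean of 3; grey is glucose, blue inosine and orange inosine with hypoxanthine. Orange points lie below all others for Hsp90aa1, Hsph1, Hspa4, Hspa9, Hspd1 and Hspe1, and overlap them for Hspa8 and Hsp90ab1.

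Mitochondrial chaperones fold the proteins imported into the matrix, and 3 of 4 fell in both comparisons, with medians of -0.60 against inosine and -0.62 against glucose. Hspd1 (HSP60, the ring-shaped chaperonin of the matrix) was at 418, 373 and 399 in glucose, 397, 392 and 391 in inosine, and 234, 232 and 229 with hypoxanthine. The hypoxanthine libraries were nearly equal and far below the rest, and the difference from inosine, -0.76 ± 0.06, had the smallest adjusted p of the 44 genes (0.000114). Hspa9 (mortalin, the matrix HSP70 that pulls proteins in) was at 171, 153 and 163 in glucose, 169, 143 and 156 in inosine, and 101, 94.8 and 99.7 with hypoxanthine. Its groups did not overlap, and it fell by 36.8% in mean FPKM against inosine (adjusted p = 0.000721).

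Hspe1 (HSP10, the lid of HSP60) was at 483, 407 and 462 in glucose, 460, 491 and 409 in inosine, and 295, 376 and 272 with hypoxanthine. Hypoxanthine library 2 was closer to the other media than libraries 1 and 3 were, and the difference from inosine was -0.54 ± 0.13 (adjusted p = 0.0196). This call was lost without inosine 1 or 2 or hypoxanthine 1 or 3, with adjusted p between 0.0505 and 0.0789. The call against glucose was lost without glucose 1 or 3 or hypoxanthine 1 or 3, with adjusted p between 0.0739 and 0.0846. Hspd1 and Hspe1 lie head to head on chromosome 1 in GRCm38 (Hspd1 at 55077835 to 55088243 on the minus strand, Hspe1 at 55088132 to 55091307 on the plus strand) and their annotated ends overlap by 112 bases. Strandedness of the sequencing is not labelled, so reads in that overlap cannot be assigned. For the ratio of Hspd1 to Hspe1 FPKM, glucose libraries averaged 0.882 ± 0.029, inosine libraries 0.873 ± 0.08 and hypoxanthine libraries 0.751 ± 0.12 (SD, n = 3), with an exact permutation p of 0.2 between the last 2. Trap1 (the mitochondrial HSP90) had means of 54.4 ± 4.48 FPKM in inosine and 49.4 ± 1.54 with hypoxanthine and was not called (-0.13 ± 0.07, adjusted p = 0.246).

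TRiC is a double ring of 8 different subunits that folds actin, tubulin and other cytosolic proteins, and 5 of the 8 genes fell in both comparisons, with medians of -0.33 and -0.29. All 8 fitted differences from inosine were below 0. Cct8 (the theta subunit) was at 228, 191 and 213 in glucose, 210, 233 and 224 in inosine, and 144, 166 and 143 with hypoxanthine. It had the largest difference of the 8 from inosine, -0.56 ± 0.09 (adjusted p = 0.00299). Cct3 (the gamma subunit) was at 260, 224 and 237 in glucose, 240, 273 and 270 in inosine, and 175, 193 and 175 with hypoxanthine. All its hypoxanthine libraries were below the other 6, with a difference of -0.52 ± 0.08 (adjusted p = 0.00291).

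Cct6a (the zeta subunit) was at 204, 188 and 208 in glucose, 202, 236 and 222 in inosine, and 154, 171 and 154 with hypoxanthine. Its difference from inosine was -0.46 ± 0.08 (adjusted p = 0.00472), and its call against glucose (adjusted p = 0.0238) was lost without glucose 1 or 3 or hypoxanthine 1 or 3, with adjusted p between 0.07 and 0.0911. Cct2 (the beta subunit) was at 276, 239 and 250 in glucose, 261, 259 and 251 in inosine, and 212, 215 and 215 with hypoxanthine. Its smaller difference of -0.26 ± 0.07 was called against inosine (adjusted p = 0.0251) and glucose (adjusted p = 0.0331). The first call was lost without inosine 1 or 3 or hypoxanthine 1, 2 or 3, with adjusted p between 0.0509 and 0.0808. The second was lost without glucose 1 or 3, inosine 3 or hypoxanthine 1, 2 or 3, with adjusted p between 0.0509 and 0.0982. Cct7 (the eta subunit) had means of 222 ± 11.1 FPKM in inosine and 172 ± 2.76 with hypoxanthine (adjusted p = 0.0062).

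The remaining subunits were not called. Cct5 (the epsilon subunit) was at 288, 246 and 268 in glucose, 262, 302 and 310 in inosine, and 227, 259 and 227 with hypoxanthine. It was the highest subunit in all 9 libraries, and its hypoxanthine libraries were below all inosine libraries at an adjusted p of 0.0637. Without inosine library 1 (adjusted p = 0.0308) or hypoxanthine library 2 (adjusted p = 0.0478) Cct5 was called lower. Tcp1 (the alpha subunit) had means of 237 ± 20.7 FPKM in inosine and 193 ± 14.2 with hypoxanthine and an adjusted p of 0.0514, and was called lower without inosine library 1 (adjusted p = 0.0351) or hypoxanthine library 2 (adjusted p = 0.0419). Cct4 (the delta subunit) had means of 184 ± 1.89 and 166 ± 12.8 FPKM (adjusted p = 0.265). The ring holds its subunits in equal number, while the highest subunit's FPKM was between 1.42 and 1.67 times the lowest within a library. Cct4 was the lowest subunit in all 6 glucose and inosine libraries, and Cct8 was the lowest in all 3 hypoxanthine libraries.

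As a share of all FPKM in a library, the 44 genes made up 2.15%, 2.08% and 2.12% in glucose, 2.19%, 1.97% and 2.16% in inosine, and 1.64%, 1.54% and 1.62% with hypoxanthine. Every hypoxanthine library was below every other library. The 22 ER genes made up 0.682% ± 0.0038 in glucose, 0.668% ± 0.049 in inosine and 0.456% ± 0.031 with hypoxanthine (SD, n = 3). The 4 mitochondrial genes made up 0.248% ± 0.011, 0.243% ± 0.012 and 0.157% ± 0.0052 in the same order. For TRiC the shares were 0.418% ± 0.019, 0.434% ± 0.011 and 0.335% ± 0.0027. The 10 cytosolic genes, with most of their FPKM in Hspa8 and Hsp90ab1, made up 0.769% ± 0.0082, 0.76% ± 0.063 and 0.652% ± 0.032. The 3 regulators held 0.0125%, 0.0119% and 0.0127% on average, with overlap between all media.

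**Figure D4:**
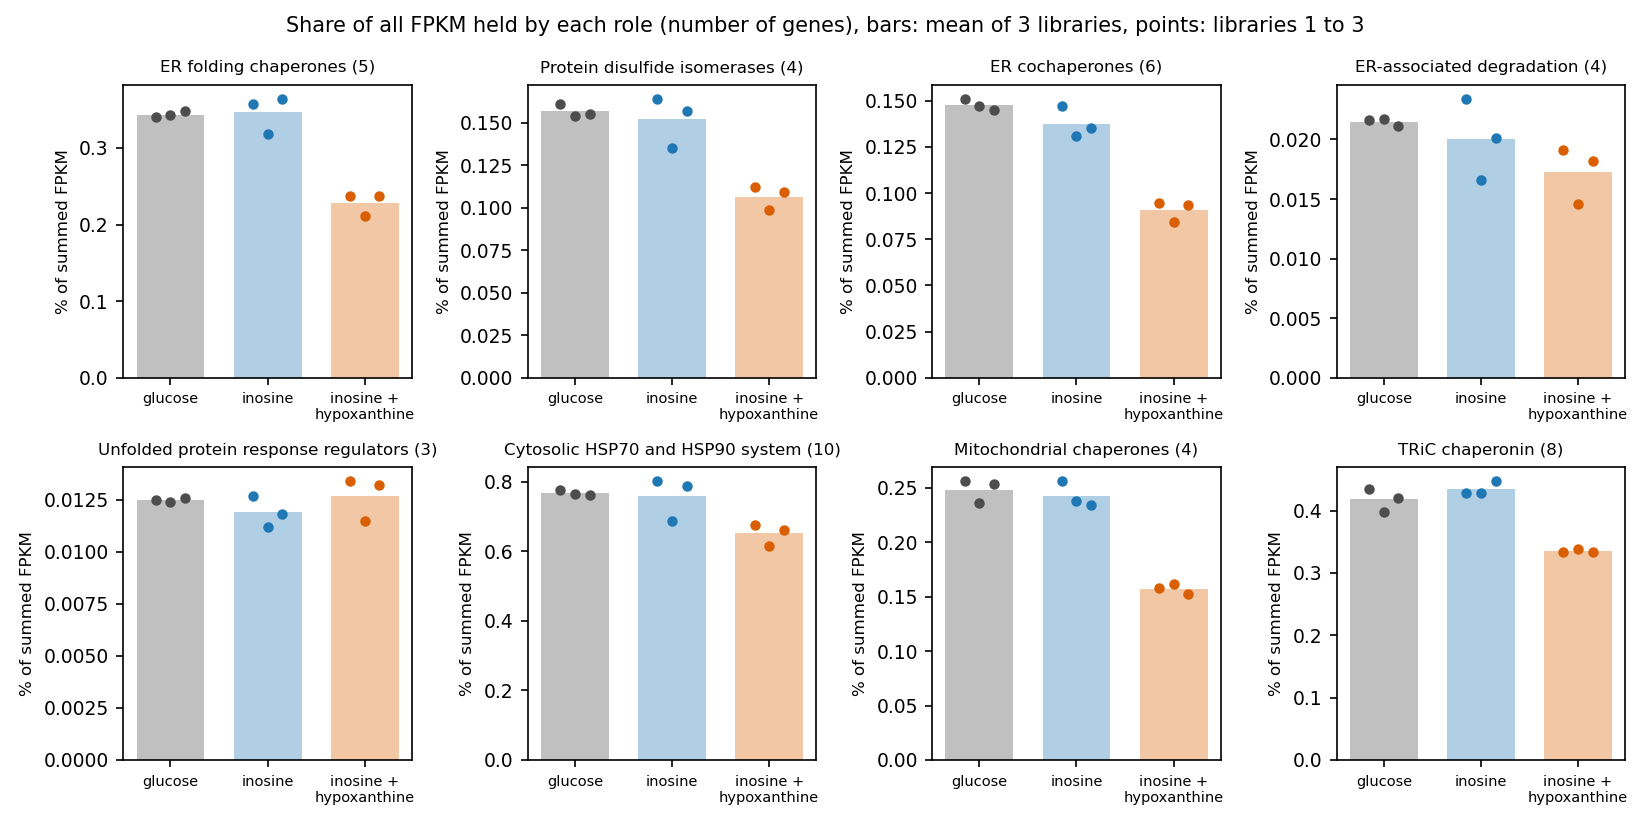
Percent of a library's summed FPKM held by each of the 8 roles (number of genes in brackets), with bars from 0 to the mean of 3 libraries and points for libraries 1 to 3 from left to right; each panel has its own scale. Mitochondrial chaperones go from 0.243% in inosine to 0.157% with hypoxanthine, and the regulators from 0.0119% to 0.0127%.

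No member of the 44 passed the test between inosine and glucose. Of the 44, limma called none between these media, and of all genes it called 0.0097%. None of the 44 had an unadjusted p under 0.05, and the lowest was 0.0551, for Dnajb11. The authors' deposited table, made with another tool, also has no member with an adjusted p under 0.05 in this comparison, against 0.00506% of its genes. The median difference was 0.01, and the 95% intervals of all 44 lay within -0.5 to 0.5 on the log2 scale, which leaves room for changes smaller than that. The largest differences in each direction were -0.21 ± 0.10 for Dnajb11 and 0.20 ± 0.10 for Hsp90aa1. Libraries of both media did not overlap for 4 genes, against 5.05% of all genes: Pdia3, Dnajb11 and Hsph1 were lower in inosine and Pdia4 was higher. Of the 9947 genes averaging 1 FPKM or more, 343 were lower and 167 higher in this way.

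In the authors' deposited table of inosine with hypoxanthine against inosine, 28 of the 44 genes had an adjusted p under 0.05, against 22.7% of the 19961 genes given one. All 28 were lower with hypoxanthine. In the authors' deposited table against glucose 29 did, against 26.5% of 19858 genes. Among these 29, Hspa1a was higher with hypoxanthine (authors' adjusted p = 0.039) and the rest were lower. The authors' deposited tables also mark genes as significant, which in every row meant an unadjusted p under 0.05 with a log2 fold change over 1 in size. None of the 44 carried that mark in any table, and of all genes 6.7% did against inosine, 6.66% against glucose and 0.247% between inosine and glucose.

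Other genes of the same pathways were taken from 7 lists with 130 genes in the tables, of which 39 fell and 7 rose against inosine, and 45 fell and 8 rose against glucose. That is 30.0% lower and 5.38% higher against inosine, where 16.0% and 16.9% of genes averaging 1 FPKM or more were, and 34.6% lower and 6.15% higher against glucose, where 15.9% and 15.0% of such genes were. In the PERK arm of the unfolded protein response, which slows translation and induces ATF4, 5 of 7 genes fell and none rose in both comparisons. Its transcription factor gene Atf4 went from 217 ± 38.8 FPKM in inosine to 109 ± 5.03 with hypoxanthine (adjusted p = 0.00244), and the ATF4 target Chac1 from 4.95 ± 0.92 to 1.65 ± 0.0823 (adjusted p = 0.000639; SD, n = 3). Which signal lay behind these differences, PERK or another, was not tested. Among 13 other genes of ER-associated degradation, 2 fell and 2 rose against inosine, 15.4% each way and so close to the shares of expressed genes just given. Selenos, a selenoprotein that recruits the extraction ATPase p97, was at 60.1 ± 1.6 FPKM in inosine and 35.6 ± 1.5 with hypoxanthine (adjusted p = 0.000147), and the derlin gene Derl3 at 0.353 ± 0.0468 and 0.745 ± 0.119 (adjusted p = 0.00987).

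Among 23 other ER folding enzymes, 2 fell and 2 rose against inosine (8.7% each way, under the shares of expressed genes), and 3 fell and 2 rose against glucose. Fkbp11, a peptidyl-prolyl isomerase of the ER, went from 8.42 ± 0.801 to 1.57 ± 0.192 FPKM (adjusted p = 3.91e-05), and the BiP nucleotide exchange factor Sil1 from 9.22 ± 0.131 to 11.7 ± 0.676 (adjusted p = 0.00805). Of 22 genes for entry into the ER and N-glycosylation, 6 fell and none rose against inosine, and 10 fell and none rose against glucose. Ssr2 of the translocon fell from 173 ± 9.52 to 118 ± 9.33 FPKM (adjusted p = 0.00242), and Rpn1 of the oligosaccharyltransferase from 80.5 ± 5.92 to 60.1 ± 2.57 (adjusted p = 0.00338).

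Of 33 cytosolic cochaperones, 10 fell and 1 rose against inosine, and 11 fell and 2 rose against glucose. Ahsa1, the activator of the HSP90 ATPase, went from 139 ± 3.38 to 105 ± 2.7 FPKM (adjusted p = 0.00197), and the HSP90 cyclophilin Ppid from 69.8 ± 2.45 to 52.2 ± 1.42 (adjusted p = 0.00417). Prefoldin hands actin and tubulin to TRiC, and of 14 prefoldin and tubulin cofactor genes 3 fell (21.4%) and 1 rose against inosine. Pfdn1 went from 65.6 ± 7.26 to 46.6 ± 3.54 FPKM (adjusted p = 0.00912) and Pfdn2 from 38.9 ± 2.14 to 31.4 ± 1.83 (adjusted p = 0.016). The prefoldin subunit gene Pfdn5 was the one that rose, from 116 ± 15.4 to 161 ± 17.8 FPKM (adjusted p = 0.0209). Of 18 mitochondrial cochaperones and proteases, 11 fell and 1 rose in both comparisons. Dnajc11, a J protein of the mitochondrial inner-membrane organising complex, fell from 35.8 ± 0.763 to 22.5 ± 0.809 FPKM (adjusted p = 0.000203), and the iron-sulfur cluster cochaperone Hscb was the one that rose, from 13.1 ± 1.22 to 22.6 ± 1.06 (adjusted p = 0.000286).

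Read against the promoter windows, 6 of the 11 ER genes that fell against inosine and have a window held the ER stress response element, and 2 of the 8 that were not called did. The 5 that fell without a match to the searched letters are Pdia3, Pdia4, Dnajb11, Sdf2l1 and Herpud1, whose windows each held a CCAAT box. Other forms of the ER stress response element were not searched, so these windows may hold one. The CCAAT box was also in 6 of the 8 ER genes that were not called. All 3 genes with a heat shock element fell, and they were 3 of the 20 genes with a window that fell. The matches of Hspd1 and Hspe1 are the same bases read on opposite strands, so they do not count separately. No match to this pattern was found in the windows of the stress-induced Hspa1a and Hspa1b or of Dnajb1, which were not called against inosine. These are counts of letters in windows and were not tested. In the GENCODE annotation of GRCm38, exons of 17 of the 44 genes overlap another annotated gene, 15 of them on the other strand, where reads cannot be told apart without strand.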

How the data were processed

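The authors deposited 3 tables, each comparing 2 media over the same 20618 genes. FPKM per gene and library are as deposited by the authors. The group means of normalized reads in the same tables are a signal the authors made by dividing read counts by library size factors, judged from their steps, since no header states it. Log2 fold changes with raw and adjusted p-values come from the authors too, and their direction was read from the group means. The submitters' processing notes list the mm10 build and the tools DESeq2 1.38.3, Subread 2.0.1, featureCounts and HISAT2; the role of each is not given in the sources used here.

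From these files, log2(FPKM + 1) of all genes and 9 libraries was fitted with limma 3.58.1 in R 4.3.3 (trend and robust settings, 6 residual degrees of freedom, no filter on low values). Genes with a Benjamini-Hochberg adjusted p under 0.05 over all genes were called. Every adjusted p is from limma unless the authors' table is named, and differences on the log2(FPKM + 1) scale understate those of low genes. Whole reads were recovered for 20586 genes (99.84%) from the deposited group means, with a tolerance of 0.0005 that was widened to at most 0.05 where the solution was less exact, and served for depth and for an alternative fit with limma's voom. The members, gene lists, tests and alternatives were chosen with earlier results of these data known. Values in every library are given, in each role, for the 3 members of smallest adjusted p against inosine and the 2 of highest mean, for members called against the direction of most in their role (none), and for Hspa5, Xbp1, Hsf1, Hspa1a and Hspa1b; others by means. From each pathway list the 2 genes of smallest adjusted p against inosine are named, and Eif2ak3, Hspa4l and Pfdn5 are named as well. Same-numbered libraries were not taken as pairs. Positions come from GENCODE and promoter sequences from RefSeq, both of GRCm38. In the member tables, 9 genes (Hyou1, Manf, Atf6, Hspa8, Hsp90aa1, Hsp90ab1, Hsf1, Hspa9 and Cct4) had no promoter window.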

Additional observations from a re-analysis of the deposited data

How the results depend on the processing

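Over 18 alternatives, 20 of the 23 calls against inosine and 20 of the 25 against glucose were kept in every one, and 0 fitted differences of a called member changed sign. The exceptions are Dnajb11, Hspe1 and Cct2 against inosine and Hyou1, P4hb, Hspe1, Cct2 and Cct6a against glucose. The number called lower against inosine was 21 to 27 over the other settings and 20 to 24 when 1 library was left out; against glucose it was 23 to 25 and 20 to 25. With the library number as a replicate block, 26 were lower against inosine, with Hyou1 (adjusted p = 0.0464), P4hb (0.0321) and Dnajc3 (0.0467) added, 24 against glucose, with Cct2 lost (0.0516), and 0 between inosine and glucose, where no alternative called a member. No label says that the numbers pair libraries, and deviations of same-numbered libraries from their group means correlated at -0.27 to 0.635 (9947 genes), not always best with their own number. Members called higher against inosine were 0 to 1 when 1 library was left out (Dnajb9, without inosine library 1). Against glucose they were 1 with only genes of a mean of at least 1 FPKM, 1 with voom on recovered reads, and 0 to 1 when 1 library was left out, in each case Hspa1a. Leaving out both libraries of highest mitochondrial share, an alternative chosen after seeing the data, gave 24 lower in each hypoxanthine comparison. The median difference stayed between -0.41 and -0.30 in both hypoxanthine comparisons. The cause of these shifts was not tested. With 3 libraries per medium, precision is limited by the spread between libraries rather than by depth, except for the members near 2 FPKM.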

Other observations

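Within a medium, library 2 often held the lowest value of these genes. In glucose, 23 of the 44 genes were lowest in library 2. In inosine 25 were and with hypoxanthine 24 were, among them all 4 genes of ER-associated degradation in the last 2 media. The same order was not counted over all genes, so a shift of the whole library cannot be told apart. Of the 8 TRiC subunit genes, 7 were highest in hypoxanthine library 2, while all 8 were lowest in glucose library 2. No label links libraries of the same number, so this is not a difference between media. Between libraries of a medium the coefficient of variation had a median over the 44 genes of 6.14% for glucose, 8.54% for inosine and 6.45% for hypoxanthine.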
